A study of Mus musculus with 36 samples.

Results

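The sites described here are places where chromatin immunoprecipitation followed by sequencing (ChIP-seq) found the protein MBD3 without CTCF and away from the ends of genes. They were chosen from the deposited peak lists of mouse embryonic stem cells. The 4 MBD3 lists, for days 0, 2, 4 and 6, were joined into merged sites wherever their peaks overlapped by 1 bp or more. A merged site was kept if it overlapped no CTCF peak of any day, no annotated pseudogene and no window of 1 kb either side of an end of a protein-coding gene. This left 1573 of 18378 merged MBD3 sites, or 8.56% (exact 95% interval 8.16 to 8.97). They made up 62.5% (60.5 to 64.4) of the 2518 merged sites without CTCF. Of the 1573 sites, 799 overlapped a protein-coding gene and are called inside genes, and 774 lay between genes.

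The series holds 36 samples in 12 groups of 3 replicates, namely CTCF ChIP, MBD3 ChIP and input chromatin on each of the 4 days. All groups are mouse embryonic stem cells grown in KnockOut serum replacement medium with leukaemia inhibitory factor, on gelatin and irradiated mouse embryonic fibroblast feeders, and the deposited lists are marked WT. What the cells were exposed to between the days is not given in the labels. Feeder cells can contribute chromatin to each sample, and peak lists hold no expression values with which to check the cell type. Each list was called on replicates 1 to 3 together, so there is no spread between replicates and differences between days are given as values without a test.

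MBD3 belongs to NuRD, the nucleosome remodelling and histone deacetylase complex, which combines the remodelling ATPase CHD4 with the histone deacetylases HDAC1 and HDAC2, MTA and GATAD2 proteins and the histone chaperones RBBP4 and RBBP7. The mammalian MBD3 protein belongs to the methyl-CpG binding domain family, but its own domain binds methylated CpG weakly. In embryonic stem cells NuRD is known for tuning the level of genes at enhancers and promoters and for its part in leaving the pluripotent state. CTCF is the zinc finger protein of insulators and loop borders.

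Few of the sites reached an annotated promoter. The RefSeq table of transcript starts (GRCm38.p6, the assembly of mm10) holds windows of 300 bases, 250 before to 50 after each start. For 1522 of the sites the table covers the chromosome. Of these, 38 overlapped a window, or 2.50% (1.77 to 3.41), against 8.59% of all merged MBD3 sites. The rule itself left out sites at the ends of protein-coding genes. MBD3 sites that carried CTCF at the same kinds of place overlapped a window in 2.41% of cases (2.15 to 2.69). The stretches below are the bases before a transcript start that lay under a site, 5′ to 3′ on the strand of the gene, with each CG dinucleotide in capitals. The leading 3 are examples of at least 60 bases at sites found on 2 or more days, and the last 2 belong to the single-day sites of highest fold with such a stretch.

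Ppp1cc (chr5:122158052-122158274, plus strand): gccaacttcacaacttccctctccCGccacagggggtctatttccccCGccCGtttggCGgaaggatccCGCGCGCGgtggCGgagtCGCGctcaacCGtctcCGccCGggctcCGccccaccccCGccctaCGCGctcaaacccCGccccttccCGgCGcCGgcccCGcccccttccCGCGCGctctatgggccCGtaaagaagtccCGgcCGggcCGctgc
Gm33272 (chrY:90793437-90793662, plus strand): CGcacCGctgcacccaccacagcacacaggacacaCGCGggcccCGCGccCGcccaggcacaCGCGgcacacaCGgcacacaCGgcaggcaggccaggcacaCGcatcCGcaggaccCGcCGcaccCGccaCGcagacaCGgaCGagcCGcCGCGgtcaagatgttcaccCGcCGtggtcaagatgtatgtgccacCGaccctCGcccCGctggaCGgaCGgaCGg
Gm52421 (chrX:73035898-73036019, plus strand): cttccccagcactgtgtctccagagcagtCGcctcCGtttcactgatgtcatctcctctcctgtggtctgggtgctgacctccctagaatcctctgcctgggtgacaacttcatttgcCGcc
Zfp787 (chr7:6155966-6156215, minus strand): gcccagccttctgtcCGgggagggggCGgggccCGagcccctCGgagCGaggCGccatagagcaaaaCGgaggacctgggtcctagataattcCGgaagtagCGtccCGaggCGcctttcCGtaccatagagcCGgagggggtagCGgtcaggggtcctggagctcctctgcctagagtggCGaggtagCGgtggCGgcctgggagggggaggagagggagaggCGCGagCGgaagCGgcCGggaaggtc
Gm34441 (chr6:55645395-55645498, plus strand): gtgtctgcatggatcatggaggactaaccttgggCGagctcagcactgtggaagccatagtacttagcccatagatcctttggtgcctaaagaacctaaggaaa

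The stretch at Ppp1cc, the gene of a protein phosphatase 1 catalytic subunit, held 30 CG in 223 bases, with folds of 3.28 and 2.70 on days 2 and 4. The stretch upstream of Gm33272 on chromosome Y held 30 CG in 226 bases, at a site of days 2, 4 and 6. Its folds of 2.38, 2.46 and 2.24 were low, at percentiles 8.64, 5.98 and 0.81 of the lists of those days. Among the printed stretches, CG were fewest at 2. At Gm52421, a transcript inside Pnma5 on chromosome X with a site of days 0 and 2, 3 lay in 122 bases. At Gm34441, a day 6 site of fold 4.09, 1 lay in 104 bases. At the zinc finger gene Zfp787, a day 0 site of fold 3.76, there were 22 CG in 250 bases. Over the 41 windows of 38 genes that a site overlapped, the median number of CG was 24 and the median G and C content 63.3%. Over all 32851 windows these medians were 7 and 52.7%, and over the 352 windows with a CTCF-carrying MBD3 site at the same kinds of place 14 and 58%. The letters CCCTC, searched on both strands as the core of the CTCF motif, were in 85.4% of the 41 windows, in 75% of the 352 and in 66% of all. These windows are G and C rich, and a match of 5 letters is a description and not a binding site.

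The MBD3 lists held 10464, 1991, 9006 and 10875 peaks on days 0, 2, 4 and 6. Since the peak caller computes fold enrichment and p from whole fragments by fixed formulas, both numbers could be worked back to the fragments at a summit and the background expected there. The background level of a list, its lowest common value, follows sequencing depth and was 1.51, 2.18, 1.93 and 1.41 fragments on these days. The median site described here rested on 16, 31, 22 and 20 fragments. Fragments were amplified by PCR, so intervals cover counting error only. All folds below are the authors' fold enrichment at the summit, which depends on the background of each list.

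The sites were spread unevenly over the days and rarely repeated. On day 0 there were 789 of them (50.2%), on day 2 312 (19.8%), on day 4 491 (31.2%) and on day 6 325 (20.7%). Of all merged MBD3 sites, 56.8%, 10.8%, 48.9% and 59.0% had a peak on those days. Day 6, the longest MBD3 list, thus held fewer of these sites than day 4. A single day accounted for 1347 of the sites, 85.6% (83.8 to 87.3), where 52.8% of all merged sites were found on 1 day only. MBD3 sites that carried CTCF at the same kinds of place were single-day in 51.1% (50.2 to 51.9), sites without CTCF on pseudogenes in 31.9% (27.7 to 36.4) and those at gene ends in 70.1% (65.8 to 74.1). Another 134 sites were found on 2 days, 66 on 3 days and 26 on all 4 days. The 26 are 1.65% (1.08 to 2.41), and 4.90% of all merged sites were found on all 4 days. Without the day 0 list 907 sites met the rule, of which 56.4% were inside genes.

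**Figure D1:**
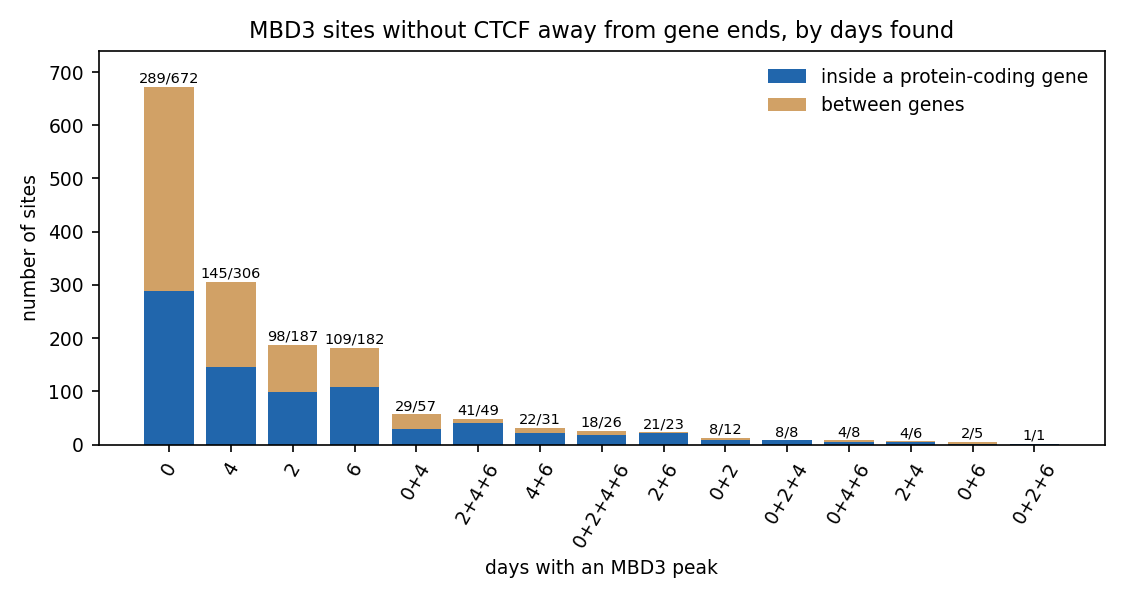
Number of MBD3 sites without CTCF and away from gene ends (y axis) for each combination of days with a peak (x axis), with the part inside protein-coding genes in blue and the part between genes in brown. The numbers above the bars are sites inside genes over all sites: 289 of 672 on day 0 only and 41 of 49 on days 2, 4 and 6.

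The day 0 sites were the least often seen again. Of the 789, 5.96% (4.41 to 7.84) had a peak on day 2, 12.5% (10.3 to 15.1) on day 4 and 5.07% (3.65 to 6.84) on day 6. For CTCF-carrying MBD3 sites at the same kinds of place these shares were 8.28%, 48.5% and 59.0%. The later days shared more with each other. Of the 325 day 6 sites, 30.5% (25.5 to 35.8) had a peak on day 2 and 35.1% (29.9 to 40.5) on day 4, against 12.3% (8.94 to 16.4) on day 0. Among CTCF-carrying sites the order was different, with 7.71% of day 6 sites found on day 2, 48.6% on day 4 and 51.2% on day 0.

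The share of sites inside genes varied with the days on which they were found. Over all days 50.8% (48.3 to 53.3) were inside, near the 50.3% of all merged MBD3 sites and above the 45.7% (44.8 to 46.5) of CTCF-carrying sites at the same kinds of place. Among the 672 sites of day 0 only, 289 were inside, or 43.0% (39.2 to 46.8). Among the 109 sites that were absent on day 0 and found on 2 or 3 later days, 88 were inside, or 80.7% (72.1 to 87.7). Both intervals count sites of pooled lists and carry no spread between replicates, so this difference was not tested. That pattern of days was shown by 10.5% of all merged MBD3 sites, whose share inside genes was not computed. Single-day sites of days 2, 4 and 6 were inside genes in 52.4%, 47.4% and 59.9% of cases. Sites of 2 or more days were inside in 69.9% (63.5 to 75.8) and single-day sites in 47.6% (44.9 to 50.3).

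By fold, the median site ranked below the middle of its list, at percentiles 27.7, 44.2, 34.6 and 35.3 on days 0, 2, 4 and 6. Sites inside genes came near the middle on days 2 and 6, at percentiles 45.9 and 47.5. Median folds on days 0, 2, 4 and 6 were 3.38, 4.00, 3.41 and 4.09, against 4.27, 4.21, 3.99 and 4.66 at CTCF-carrying sites at the same kinds of place. Sites inside genes had medians of 3.31, 4.09, 3.46 and 4.49 and sites between genes 3.40, 3.77, 3.38 and 3.74. The 2 classes were therefore close on days 0 and 4, and inside genes was the higher on day 6. On that day the 75th percentile was 6.67 inside genes and 4.27 between genes. Compared within a day, sites found on 2 or more days had median folds of 3.00, 5.03, 3.71 and 5.29 on days 0, 2, 4 and 6 and single-day sites 3.39, 3.68, 3.36 and 3.74. Repeated sites were thus the lower on day 0 and the higher on each later day. Their background was higher on every day, with medians of 6.12, 5.20, 4.06 and 3.64 times the level against 2.41, 1.89, 2.03 and 1.74.

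**Figure D2:**
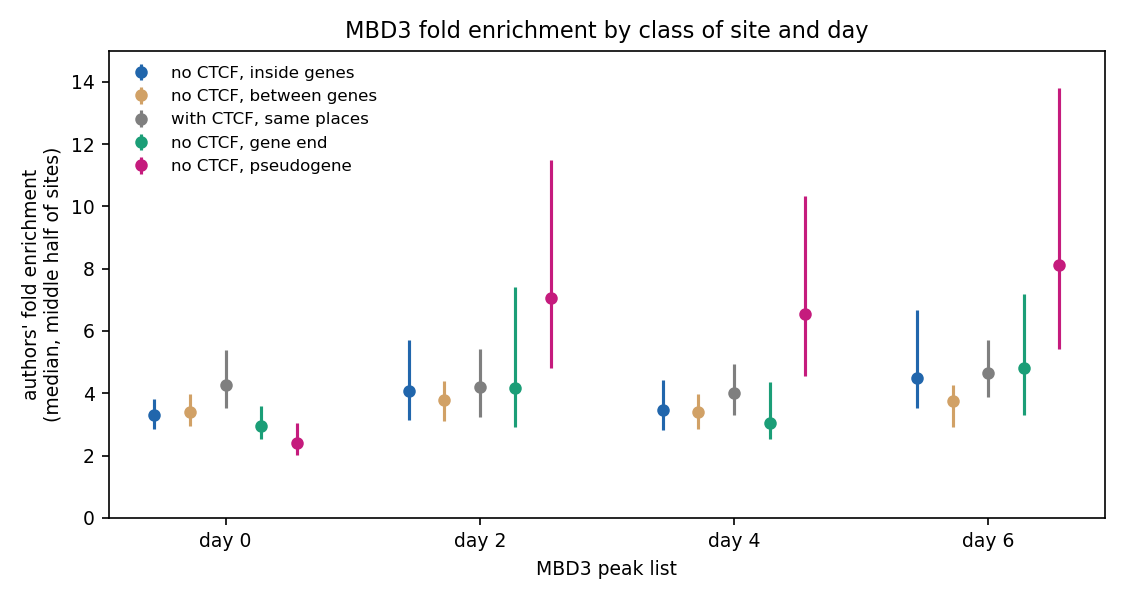
Authors' MBD3 fold enrichment (y axis) on each day (x axis) for sites without CTCF inside genes, between genes, at gene ends and on pseudogenes, and for CTCF-carrying sites at the same kinds of place. Points are medians and lines run from the 25th to the 75th percentile of the sites: on day 6 inside genes the median was 4.49 and the line ends at 6.67, and pseudogene sites lie above the other classes on days 2, 4 and 6.

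Strong sites were few on day 0. A fold of 10 or more was reached by 3.02%, 9.78%, 3.92% and 5.10% of all MBD3 sites of days 0, 2, 4 and 6. Of the 789, 312, 491 and 325 sites described here on those days, 3, 24, 20 and 34 reached it. These are 0.952%, 12.4%, 5.68% and 6.15% of all MBD3 sites of that strength on each day. At any strength, the sites described here were 789 of 10440, 312 of 1984, 491 of 8981 and 325 of 10850 MBD3 sites. In all 46 sites reached a fold of 10 on some day. Of these 36 were inside genes, 30 were absent on day 0 and 39 were found on 2 or more days. Of all merged MBD3 sites of any strength, 50.3% were inside genes, 56.8% had a peak on day 0 and 52.8% were single-day. These shares were not computed for all merged sites that reached a fold of 10, so the counts describe the 46 sites only. When only MBD3 peaks with a -log10 q of 10 or more were joined, 183 sites remained under the rule, of which 68.9% (61.6 to 75.5) were inside genes and 51.9% (44.4 to 59.3) single-day. They numbered 43, 110, 85 and 109 on days 0, 2, 4 and 6, so day 0 then had the fewest. CTCF-carrying sites at the same kinds of place, merged from all peaks, had such a peak in 2764, 451, 2638 and 4326 cases, fewest on day 2. The shares inside genes and single-day were not computed for all merged sites at this limit, so these shares describe the 183 sites only. With the 1991 MBD3 peaks of highest -log10 q taken from each day, day 0 had 25 sites and days 2, 4 and 6 had 315, 65 and 77. That number is the whole day 2 list, so day 2 alone kept its weak peaks and cannot be compared with the other days here.

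The strongest sites absent on day 0 and found on 2 or 3 later days lay inside Hsp90ab1 and Macrod2 and far from genes on chromosome X. Hsp90ab1, which encodes the chaperone HSP90 beta, held a site at chr17:45568881-45569142 with folds of 50.6, 28.6 and 64.6 on days 2, 4 and 6. It lay 1103 bp from the nearer gene end, just outside the excluded window. Another site in this gene, at chr17:45570316-45571138, had folds of 8.01, 8.81 and 16.7 on the same days. Both were thus present on every later day and highest on day 6. Macrod2, the gene of an ADP-ribose hydrolase, held a site at chr2:140955857-140956182 with folds of 45.0, 18.1 and 60.9. The nearest end of a protein-coding gene, that of Flrt3, lay 284381 bp away. A site between genes at chrX:64497764-64498029, 220419 bp from Slitrk4, had folds of 35.6, 20.1 and 39.8. Like the site in Macrod2, it had its lowest fold on day 4. Its nearest CTCF peak was 439057 bp away, and its background was at most 1.16 times the level of the list. The lists hold no value where no peak was called, so the day 0 fragments and background at these sites are not known.

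Pkm, the pyruvate kinase of glycolysis, held a site at chr9:59670465-59670740 with folds of 20.6, 21.7 and 21.2 on days 2, 4 and 6. Ncl, which encodes the nucleolar protein nucleolin, had 19.5, 18.6 and 24.3 at chr1:86356552-86357416. Ybx1, which encodes an mRNA-binding protein, had 18.2, 14.9 and 19.1 at chr4:119282156-119282441. These 3 sites had nearly level folds over the later days. Taf15, which encodes an RNA-binding protein, had folds of 15.9, 10.6 and 22.3, Ppig 13.1, 9.43 and 18.8, and Pnisr 9.96, 9.44 and 18.9, each with its lowest fold on day 4. Rsrc2 had a peak on day 2 (17.3) and day 4 (6.25) and none on day 6. These sites were picked by their folds after the data were seen, and Gm17330 on chromosome 12, with 9.85, 15.1 and 29.3, completes the 12 strongest sites of the pattern. The nearest CTCF peak lay 236 bp from the Gm17330 site and 980 bp from the Pkm site. For the others of the 12 it was 4282 bp (Ppig) or more away.

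**Figure D3:**
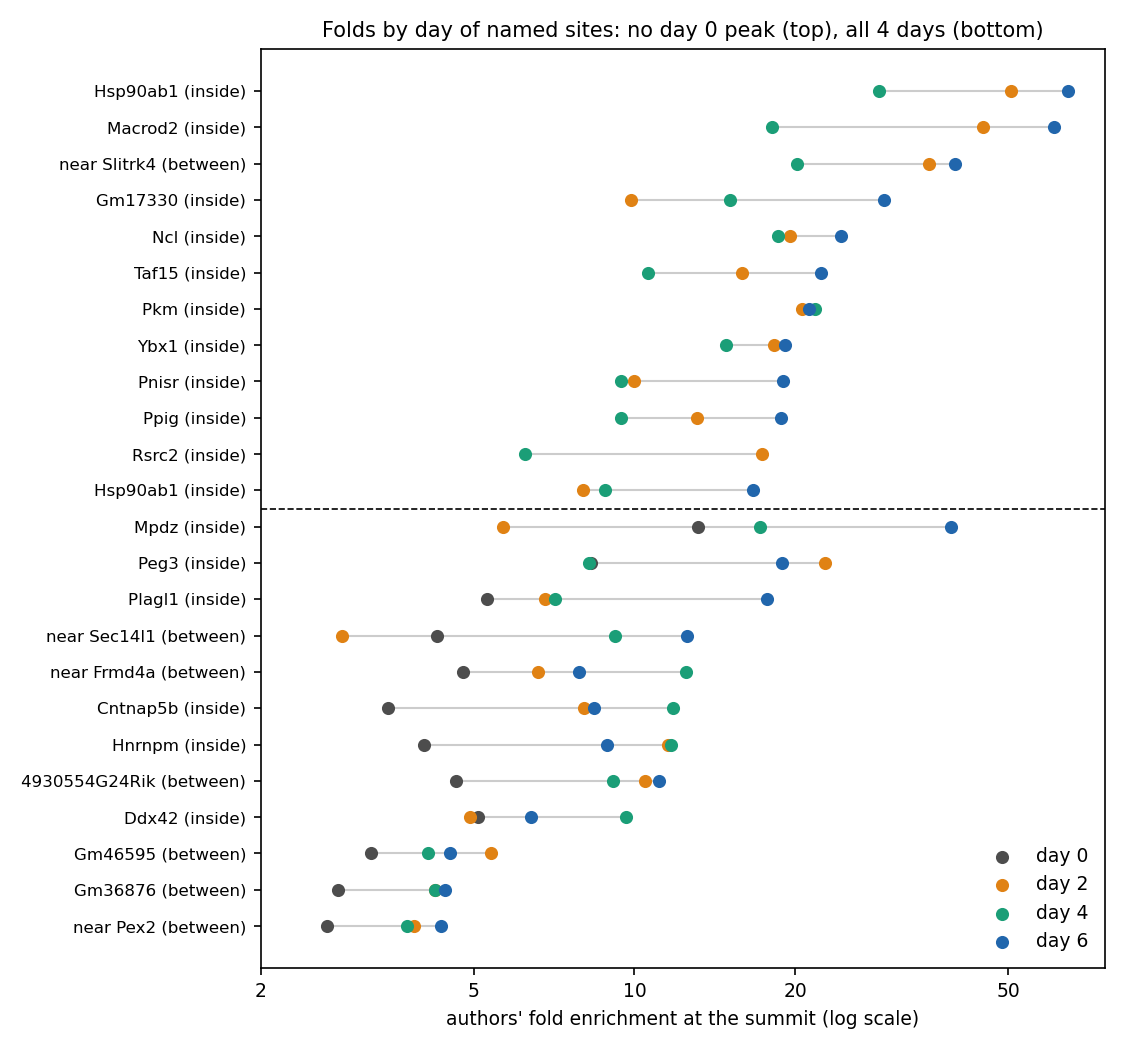
Authors' fold enrichment at the summit (x axis, log scale) on each day (colours) for the 12 strongest sites absent on day 0 and found on 2 or 3 later days (above the dashed line) and 12 sites found on all 4 days (below). Day 0 is the lowest point at 8 of the 12 sites below the line, where the background was also highest on day 0 at most sites of that kind (20 of 26), and Hsp90ab1 reaches 64.6 on day 6.

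Sites of all 4 days numbered 26, of which 18 were inside genes, with median folds of 2.88, 5.63, 7.13 and 8.15 on days 0, 2, 4 and 6. Their fragments did not follow that order, with medians of 97.5, 144.5, 99 and 110, while the median background was 24.5, 8.66, 7.11 and 8.70 times the level. Mpdz, which encodes a scaffold protein with many PDZ domains, held one at chr4:81329535-81330657 with folds of 13.2, 5.68, 17.2 and 39.1 on days 0, 2, 4 and 6. It had the highest day 0 fold of all 1573 sites. The imprinted, paternally expressed gene Peg3 had 8.28, 22.7, 8.21 and 18.8 at chr7:6707790-6708336. Plagl1, another imprinted zinc finger gene, had 5.30, 6.81, 7.09 and 17.7 at chr10:13128646-13128952, 951 bp from the nearest CTCF peak. In the RNA helicase gene Ddx42 the folds were 5.09, 4.92, 9.63 and 6.39, and in the splicing factor gene Hnrnpm 4.04, 11.6, 11.7 and 8.88. Between genes, the site at chr2:3972579-3972934, 44716 bp from Frmd4a, had 4.79, 6.60, 12.5 and 7.89, with a background of at most 1.02 times the level.

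Background was high at most of these constant sites on day 0. It exceeded 10 times the level of the list at 20 of the 26 on day 0 and at 11, 8 and 12 of them on days 2, 4 and 6. For comparison it did so at 7, 4 and 7 of the 49 sites of days 2, 4 and 6 on these days, and at 19 of the 672 sites of day 0 only. Day 0 had the lowest fold at 19 of the 26 sites and the highest background relative to its level at 20, and both held at 17. Fold and background are tied by formula, since the background was worked back from fold and p, so these counts are not independent. On any day on which a site was found, the background exceeded 10 times the level at 124 of the 1573, or 7.88%, against 12.2% of all merged MBD3 sites. The 124 had a median best fold of 2.65 and the others 3.57. The site at chr14:8799864-8800518, 133528 bp from Cfap20dc, had folds of 2.43, 15.7, 13.1 and 49.0. Its fragments were 284, 160, 120 and 203 and its background 116.4, 9.27, 8.23 and 3.16, so the low day 0 fold came with the most fragments and the highest background. The part of local background in the differences between days was not tested. Of the 46 sites that reached a fold of 10, 10 had such a background.

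Protein-coding genes holding a site numbered 735 of 21887, or 3.36%. For 180 genes of abundant transcripts in 6 lists the share was 14.4% (9.66 to 20.4), with 26 genes holding 34 sites. The choice of these lists followed earlier results of these data, including Hsp90ab1. Neither the count nor the days of these sites is therefore independent evidence. The median span of the 180 genes was 4785.5 bp, shorter than the 17169 bp of all genes. The 34 sites lay 1056 bp (Hnrnpu) to 11614 bp (Eif3a) from the nearest protein-coding gene end. Over all sites inside genes the median was 13812 bp. Several of the 34 lay just outside the excluded windows, among them those of Rpl21 (1071 bp), Cct3 (1074 bp) and Actg1 (1194 bp). Of the 34 sites, 28 (82.4%) were absent on day 0, against 440 of 799 (55.1%) of all sites inside genes. On 2 or more days 16 (47.1%) were found, against 19.8%. They were found on days 0, 2, 4 and 6 in 6, 24, 15 and 20 cases, where all sites inside genes gave 359, 199, 271 and 218. Day 0 had the fewest sites in these lists and the most over all genes, which describes lists chosen with such results known.

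Of 23 chaperone genes 7 held a site. Besides Hsp90ab1, Hspa4 had a fold of 17.6 on day 6 alone, and Hsp90b1, the chaperone of the endoplasmic reticulum, 13.1, 6.77 and 11.02 on days 2, 4 and 6 and a separate site of 3.32 on day 0. Hspd1, the mitochondrial chaperonin, had 7.06 and 4.02 on days 2 and 4, and Calr, which encodes calreticulin, 4.38 and 6.28 on days 2 and 6. Among 21 translation and nucleolar genes 5 held a site, all absent on day 0. The elongation factor gene Eef1d had 8.92, 12.4 and 14.1 on days 2, 4 and 6, and the initiation factor gene Eif3a 5.01, 6.94 and 6.14. A second site of Ncl had a fold of 14.7 on day 6 alone. The remaining 2 genes, Pabpc1 and Eef2, had single-day sites of at most 6.23.

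Of 20 RNA-binding and splicing genes 5 held a site. Hnrnpu had folds of 2.83, 20.6, 10.5 and 8.41 on days 0, 2, 4 and 6 at chr1:178336935-178337835, and a second Ybx1 site, at chr4:119294197-119294504, had 2.42, 19.2, 10.8 and 9.55. Both lay at the transcript start, with the lowest fold on day 0 and the highest on day 2. Day 0 fragments were not the fewest, with 342, 514, 190 and 126 at Hnrnpu and 591, 592, 251 and 231 at Ybx1. The background on day 0 was 120.4 and 243.6 fragments, against at most 24.0 and 29.9 later. Of 17 cytoskeleton genes 4 held one, and the site listed at Pfn1, which encodes profilin, also overlaps Eno3 and had 5.12, 3.71 and 4.01 on days 2, 4 and 6. Actb had 4.32 and Actg1 3.07 on day 2 alone. Of 12 glycolysis genes Pkm and Pfkp held a site. Among 87 ribosomal protein genes, 70 of which span more than 2 kb and so leave any room between the windows, 3 held one. These were Rps3 with 6.47, 6.87 and 11.5 and Rps2 with 6.70, 6.61 and 5.06 on days 2, 4 and 6, and Rpl21 with 3.37 on day 0.

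**Figure D4:**
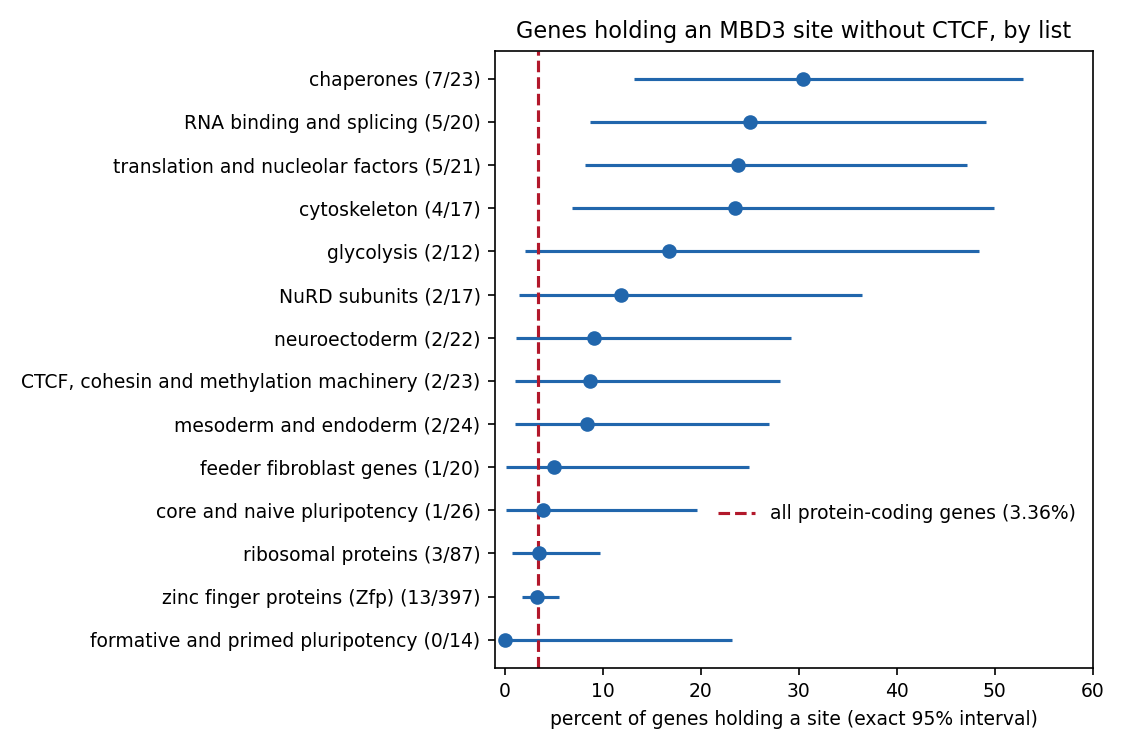
Percent of the genes of each list that held an MBD3 site without CTCF away from their ends (x axis), with exact 95% intervals and, in brackets, genes holding a site over genes measured. The dashed line marks the 3.36% of all protein-coding genes, and chaperones (7 of 23) lie at 30.4% and ribosomal proteins (3 of 87) at 3.45%.

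Sites in genes of cell identity were too few to set their share apart from that of all genes. Over 4 lists of pluripotency and lineage genes 5 of 86 held a site, 5.81% (1.91 to 13.05), a wide interval that includes the 3.36% of all genes. These genes had a median span of 8845.5 bp, against 17169 bp over all genes, and the shares are not corrected for span. Of 26 core and naive pluripotency genes only Esrrb, a nuclear receptor of the naive state, did, with a fold of 2.98 on day 0. None of 14 formative and primed genes held one. Of 22 neuroectoderm genes 2 did, Nrxn3 with 3.75 on day 4 and Sox1 with 2.37 on day 0, and 2 of 24 mesoderm and endoderm genes, among them Gata4 with 4.39 on day 0. All 5 were single-day sites, 3 of day 0 and 2 of day 4, as were 80.2% of all sites inside genes on some day. Within NuRD's own 17 genes, Chd4, the remodelling ATPase, had a fold of 5.18 on day 6 and Mbd3 itself 3.13 on day 0. Among 23 genes of CTCF, cohesin and DNA methylation, Ctcfl had 2.86 and 3.43 on days 0 and 4 and the maintenance methyltransferase gene Dnmt1 2.36 on day 0. Of 20 genes typical of fibroblasts, the cell type of the feeders, Prrx1 held a site, with 3.41 and 3.27 on days 0 and 4. Zinc finger genes named Zfp, a list added after the data were seen, held one in 13 of 397 cases (3.27%).

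Long genes held sites more often. A longer gene offers more bases to hold a site, and a span of up to 2 kb leaves no room between the windows. The shares are not corrected for span, so they are no measure of a preference for long genes. The share of genes holding one was 0.593% for spans up to 10 kb, 2.61% from there to 50 kb, 6.83% to 200 kb and 18.5% above. Genes holding a site of day 0 only had a median span of 97083 bp, and genes holding a site absent on day 0 and found on 2 or 3 later days 30563 bp. For sites of day 2, 4 or 6 only the medians were 49293, 107478 and 76245 bp, and for sites of 2 or more days 36422 bp, so single-day sites of each day lay in longer genes than repeated sites. Most of the 735 genes, 680, held 1 site, 45 held 2, 7 held 3, 1 held 4 and 2 held 5. The 4 sites of Fhit, a diadenosine triphosphate hydrolase gene that spans 1611970 bp, had folds of 2.38 to 4.40, and the 3 of Disc1 3.58 to 3.82. None of these 7 sites was found on a second day, where 80.2% of all sites inside genes were single-day.

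Akap12, which encodes a scaffold of protein kinase A, held 3 sites of another kind near one end of the gene. At chr10:4353391-4354098 the folds were 5.93, 4.40 and 7.19 on days 2, 4 and 6, and at chr10:4354405-4355004 they were 5.78, 4.40 and 8.36. The third, at chr10:4356632-4356957, had 3.10 and 2.93 on days 4 and 6. All 3 were absent on day 0 and had backgrounds of at most 8.03 times the level. The 5 sites each of Sfi1 and 4930467E23Rik, which had the most, were weak, with best folds of 1.61 to 2.51 and 1.96 to 2.35. Their backgrounds were 23.9 to 59.4 and 7.54 to 27.98 times the level.

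Sites also lay close together in a few stretches. Joining sites up to 10 kb apart, the stretch with the most, 9, ran from 3000311 to 3023667 on chromosome 9, 311564 bp from the nearest protein-coding gene, Alkbh8. All 9 were found on day 6 and only 1 on days 0 and 4 as well, with folds of at most 3.11 and a median background of 127 times the level. A stretch of 4 lay inside 4930467E23Rik, and a stretch of 3 in 2258 bp inside Hsp90ab1. At the other extreme, the site farthest from any protein-coding gene lay at chr14:90974483-90974875, 2038825 bp from Pcdh9, with a fold of 4.27. Next came sites near Celf4 on chromosome 18 (1972022 bp, fold 5.99) and near Stim2 on chromosome 5 (1722795 bp, fold 2.94). All 3 were found on day 0 alone.

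The direction of a gene was known for 633 sites inside genes, from the transcript starts in the RefSeq table. With each gene cut into 3 equal parts from start to end, 31.3% of these sites lay in the part at the start, 33.6% in the middle and 35.1% in the part at the end. The 221 sites of day 0 only had shares of 40.3% (33.7 to 47.1), 30.8% and 29.0%, and the 122 sites of 2 or more days 23.0% (15.8 to 31.4), 35.2% and 41.8%. CTCF-carrying sites at the same kinds of place had 29.1%, 32.2% and 38.7%, and the interval of the repeated sites for the part at the start includes their value. The difference between day 0 only and repeated sites was not tested. Exons and introns could not be told apart with the annotation used here.

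**Figure D5:**
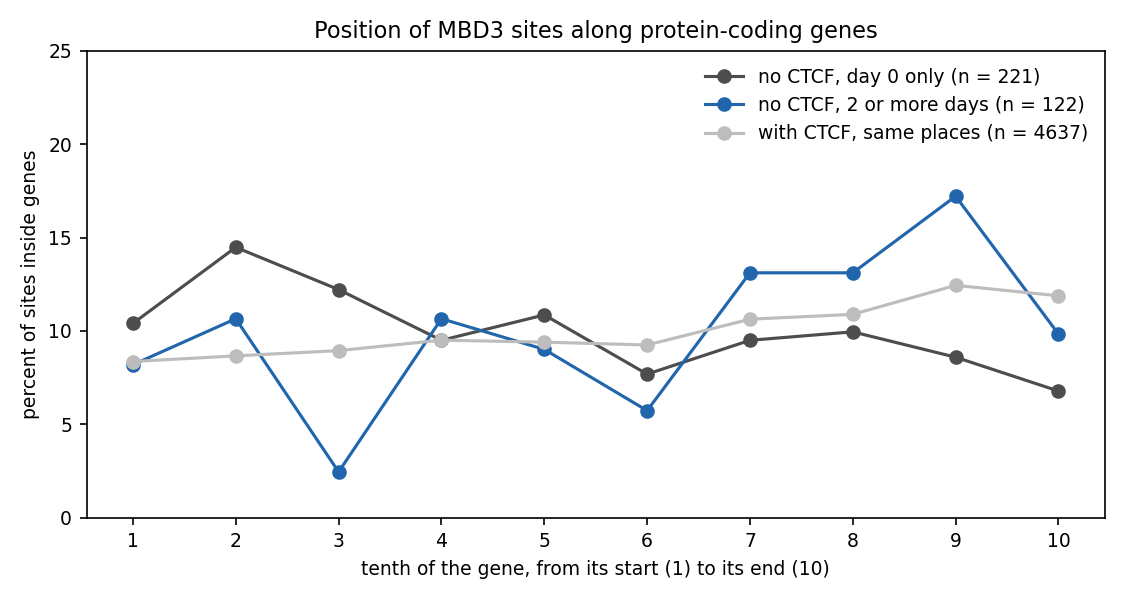
Percent of MBD3 sites inside genes (y axis) in each of 10 equal parts of the gene from its start to its end (x axis), for sites without CTCF of day 0 only (n = 221), of 2 or more days (n = 122) and for CTCF-carrying sites at the same kinds of place (n = 4637). Sites of day 0 only reach 14.5% in part 2, and sites of 2 or more days 17.2% in part 9.

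Annotated noncoding genes were overlapped by 150 sites, 9.54%, against 12.1% of all merged MBD3 sites and 13.4% of CTCF-carrying sites at the same kinds of place. Long noncoding RNA genes made up 132 of them. Malat1, an abundant nuclear RNA, held the strongest, with folds of 1.68, 8.84, 7.18 and 13.1 on days 0, 2, 4 and 6 at chr19:5801007-5801423. The fold was lowest on day 0, when its fragments were the most (226, 196, 130 and 151) and its background the highest (134.5, 21.3, 17.2 and 10.6). The transcript 4930554G24Rik on chromosome 11 had 4.64, 10.5, 9.12 and 11.1, also lowest on day 0, with 94, 49, 26 and 26 fragments and a background of 19.5, 3.78, 1.96 and 1.43. Platr21, a noncoding RNA that shares its place with Trap1a on chromosome X, had 6.91 and 8.72 on days 2 and 6. No miRNA hairpin was overlapped. By chromosome, the share of merged MBD3 sites that met the rule ran from 5.02% on chromosome 11 to 13.5% on chromosome 14, and was 40.6% (13 of 32) on chromosome Y. Chromosome 8 had the most, 136, of which 24 had a background over 10 times the level.

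By rule no site overlapped CTCF. The nearest CTCF peak of any day lay at a median of 11631 bp, 9997 bp for sites inside genes and 14762.5 bp between genes. It was within 1 kb at 169 sites and over 100 kb away at 124. The nearest protein-coding gene end lay at a median of 13812 bp inside genes and 43314 bp between genes. At the edges of the rule, the 22 sites within 100 bp outside a gene end window had a median best fold of 3.25 and the 5 sites just inside it 3.82. The 12 sites with a CTCF peak within 100 bp had 3.13, and the 12 left out for an overlap of 50 bp or less 3.00.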

How the data were processed

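Per the labels, sonicated chromatin was immunoprecipitated with antibodies to CTCF or MBD3 and sequenced as paired ends. Tools named in the submitters' processing notes are MACS2 2.1.2, Bowtie2 2.3.4, bedtools 2.25.0, FastQC 0.11.7 and SAMtools 1.9, with the build mm10. The authors deposited 8 peak lists, each pooled over 3 replicates, with intervals, a display score, fold enrichment (a ratio), -log10 p and -log10 q. No peak list of input was used here, and whether input served as the control for the lists is not given in the sources used here. The members and gene lists were chosen with earlier results of these data known.

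Unique intervals on chromosomes 1 to 19, X and Y were merged, and a site took its highest fold per day. Gene positions were those of RefSeq on GRCm38.p6 (21887 protein-coding, 10609 pseudogenes), without strand or exons. Transcript starts came from RefSeq windows, which cover 590 of the 735 genes holding a site and no gene on chromosome 18. Of 322 listed genes, 320 matched, and Rps6k kinase genes were left out of the ribosomal list. Fragments and background were recovered within 0.1% of the -log10 p for 99.8% or more of each MBD3 list. A list's level is the lowest background shared by 0.5% of its peaks. Shares have exact (Clopper-Pearson) 95% intervals. There were no replicate values, so no test was made.

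Named sites are the 3 of highest fold per day and class, up to 6 per class found on all 4 days, those in the 6 genes with most sites, up to 6 per list, up to 6 on noncoding genes, the 3 farthest from a gene and the 3 densest stretches, of which examples are given. A gene and a promoter that meet these choices are not reported here. The 12 strongest sites absent on day 0 and the printed promoters were chosen after their values were seen. Alternatives changed the -log10 q limit, the number of peaks, the CTCF and gene end distances, the joining gap, the gene class, background and chromosomes. Leaving out each MBD3 list was added after seeing the data. The software was Python 3.11.15 with scipy 1.17.1, pandas 2.3.3, numpy 2.4.6 and matplotlib 3.10.9. Overlaps were tested on 8000 simulated intervals against bedtools 2.31.1 (267 by both), and fragments were recovered at 2000 of 2000 simulated summits.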

Additional observations from a re-analysis of the deposited data

Results flagged for a closer look

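MBD3 peaks also lay on sequences that no comparison above used, namely the mitochondrial genome and sequences not placed on chromosomes 1 to 19, X or Y. Days 0, 2, 4 and 6 had 29, 28, 31 and 45 such peaks, of which 14, 7, 13 and 14 were mitochondrial. Each number is above the 3 that a count of 0 allows. Their highest folds were 5.37, 6.11, 7.56 and 5.75.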

How the results depend on the processing

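No paired analysis was possible because each list was called on 3 replicates together and holds no value per replicate, and no replicate could be left out for the same reason. Of 124 recomputed values 84 stayed within 1.5 times (counts) or within the 95% interval of the reported value (shares and medians), and 40 moved. The number of sites was 183 at a -log10 q of 10 or more, with 126 inside genes in 121 genes, and 43, 110, 85 and 109 on days 0, 2, 4 and 6. Their share of merged MBD3 sites was then 2.298%, with 68.9% inside and 51.9% single-day, and the median folds were 4.28, 5.88, 6.39 and 7.85. Taking the 1991 peaks of highest -log10 q from each day left 346 sites, 214 inside genes, in 196 genes, and 25, 65 and 77 on days 0, 4 and 6, at shares of 7.95% of merged sites, 61.8% inside and 79.2% single-day. Without any CTCF peak within 1 kb the share of merged sites was 7.64%. With windows of 5 kb it was 6.98%, with 45.2% inside and 88.0% single-day. Counting any gene that is not a pseudogene put 57.6% inside. Leaving out backgrounds over 10 times the level gave 87.7% single-day. Without the day 0 list there were 907 sites, 512 inside, in 471 genes, at 6.17% of merged sites, 56.4% inside and 83.1% single-day. Without the day 2 list the share of merged sites was 7.75%, without day 4 it was 7.81% with 89.5% single-day, and without day 6 9.28% with 87.9% single-day. The causes were not tested. The lowest -log10 q in the MBD3 lists was 1.30, and only 183 sites remained at 10 or more. The part of depth, known from the background level alone, in the presence of sites on a day was not tested.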
